A study of Mus musculus with 12 samples.

Results

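The 9 chondrogenic transcription factor genes followed here in E14.5 mouse limb mesenchyme were *Sox9*, *Sox5*, *Sox6*, *Sox8*, *Sox4*, *Sox11*, *Nkx3-2*, *Trps1* and *Erg*. These 9 genes were picked by name, not by a measured value, out of 54532 genes in the table. All 9 were found, and all 9 were among the 16733 genes expressed strongly enough to be tested, with values of 10 or more in 6 or more libraries. Both groups carried Prrx1-Cre, a Cre recombinase driven by a *Prrx1* enhancer that is active in limb bud mesenchyme, and a transgene at Rosa26 behind a stop cassette that Cre removes. In the iCreb5 group (6 libraries) the transgene was HA-tagged bovine Creb5 with GFP. In the tdTomato group (6 libraries) it was the red fluorescent protein tdTomato. Labelled cells were sorted and their polyadenylated RNA was sequenced. The labels place 3 libraries of each group in litter 3 and 1 of each in litters 4, 5 and 6. The sources used here do not say how many embryos went into a library, so the p-values measure the spread among these 12 libraries only.

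*Sox9* encodes the HMG-box factor that starts and maintains the chondrocyte programme and switches on collagen II and aggrecan. *Sox5* and *Sox6* encode a pair of related factors that lack a transactivation domain and act with *Sox9* on cartilage enhancers, while *Sox8* encodes a close relative of *Sox9*. *Sox4* and *Sox11*, the SoxC genes, are known for supporting survival of skeletal progenitors and their keeping of fates other than cartilage. *Nkx3-2* encodes a homeobox repressor of early chondrocytes, *Trps1* a GATA-type repressor of chondrocyte maturation, and *Erg* an ETS factor of joint and permanent cartilage that is also strong in endothelium.

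Recovered depth ran from 9.02 to 53.3 M reads per library (M for 1000000), with tdTomato 3a the shallowest and tdTomato 3b the deepest. *Creb5* itself was higher in every iCreb5 library (2555 to 3162 normalised reads) than in any tdTomato library (1470.5 to 2217). The sources used here do not say where reads from the bovine transgene were counted. Of 14 limb mesenchyme markers, 12 did not pass the threshold and 2 rose, with a median log2 change of -0.02. Most of all genes tested did not pass either, as 6.72% passed, 3.87% as rises. All 12 leukocyte markers rose (median log2 change 2.75), and their summed level ran from 2596 to 11437 in iCreb5 and from 737 to 1302 in tdTomato. The part of these cells in the changes given next was not tested. In bulk RNA, fewer cells of a type and less RNA per cell cannot be told apart.

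Of the 9 regulators, 3 fell in iCreb5 (*Sox9*, *Sox5* and *Sox8*), 1 rose (*Sox4*) and 5 did not pass the threshold of an adjusted p of 0.05 in limma. Across all 16733 genes tested, 6.72% passed in either direction, 2.85% as falls and 3.87% as rises. The same 4 regulators were those whose groups did not overlap, 3 lower and 1 higher. Over all genes tested 4.75% did not overlap, 1.92% lower and 2.83% higher. The median log2 change of the 9 was -0.61, beside 0.00 over all genes tested. Fold changes are ratios of geometric means of the normalised value + 1.

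**Figure D1:**
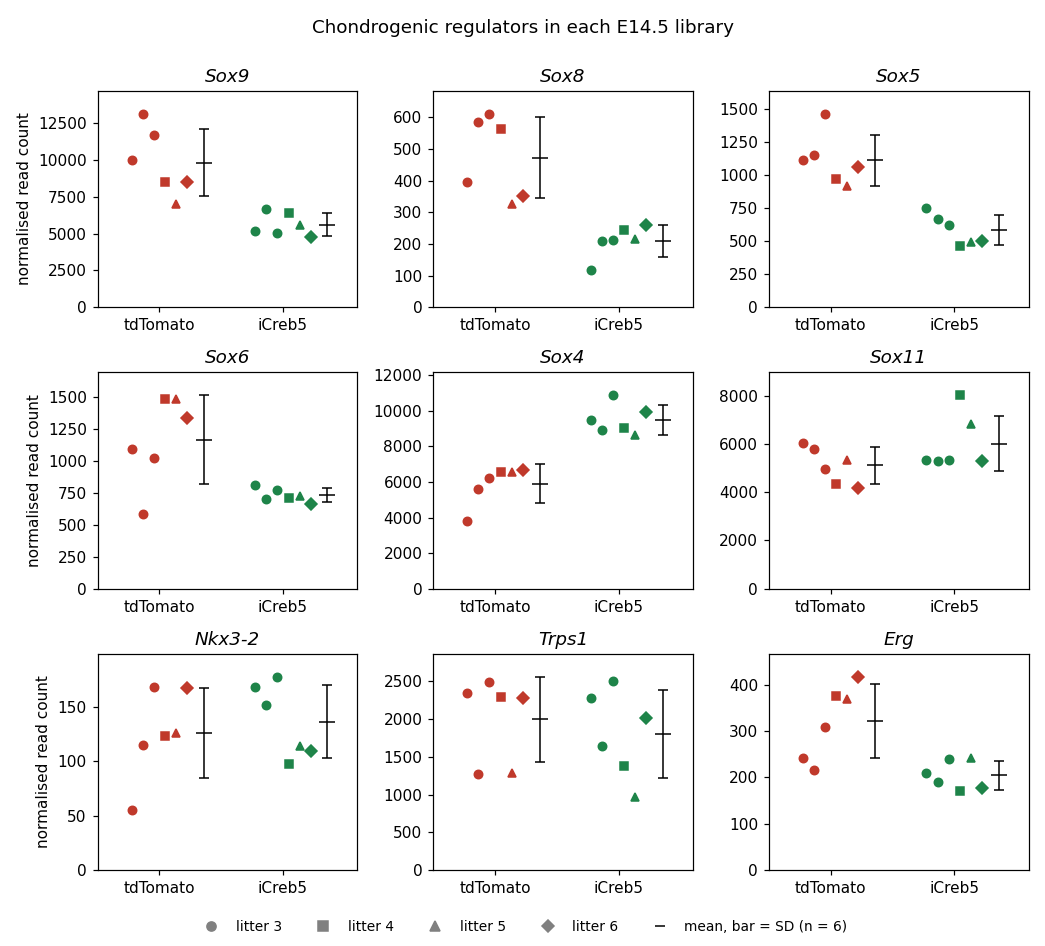
Normalised read count of each of the 9 regulators (vertical axes, each from 0) in the 6 tdTomato and 6 iCreb5 libraries. Each symbol is 1 library, its shape gives the litter, and the black mark and bar are the mean and SD of the 6 libraries. The groups are apart for *Sox9*, *Sox8*, *Sox5* and *Sox4*, and overlap for the other 5 genes.

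*Sox9* (ENSMUSG00000000567, mm10 chromosome 11, 112782224 to 112787760, plus strand) was the most abundant regulator of the tdTomato cells and was lower in all iCreb5 libraries. In iCreb5 its lowest, median and highest normalised values were 4740.4, 5407 and 6676. In tdTomato they were 7026, 9248 and 13117. The highest iCreb5 library, 3b, lay below the lowest tdTomato library, 5b, and the 3 tdTomato libraries of litter 3 were the highest of all. The means were 5614 ± 785 in iCreb5 and 9805 ± 2262 in tdTomato (SD, n = 6), a level 1.72-fold higher in tdTomato. This is a log2 change of -0.78 ± 0.15 (SE; 95% interval -1.09 to -0.47, limma adjusted p = 0.00288). Within litter 3 the log2 change was -1.04 (adjusted p = 0.00652), and within litters 4 to 6 it was -0.52 and did not pass (adjusted p = 0.0615). Here and below, the fit within litters 4 to 6 had litter as the replicate block. That within litter 3 had no block, so calls of the 2 sets are not directly comparable.

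*Sox5* (ENSMUSG00000041540, chromosome 6, 143828425 to 144781977, minus strand) fell as well. In iCreb5 its values ran from 464.3 over a median of 565.6 to 751, and in tdTomato from 917.4 over 1090.0 to 1465. No library of either group reached the range of the other. Within iCreb5 the 3 libraries of litter 3 were higher (626.4 to 751) than those of litters 4 to 6 (464.3 to 504.9). *Sox5* was 1.91-fold higher in tdTomato (adjusted p = 0.00087), a log2 change of -0.94 ± 0.15 (SE), with -0.86 within litter 3 and -1.01 within litters 4 to 6, both past the threshold. The antisense gene Sox5os1 shares 1330 exonic bases with *Sox5* and had a mean value of 2.80 over the 12 libraries.

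The promoter of *Sox5* is printed because the gene fell and because its window in the RefSeq promoter table holds the 1 SOX word found in windows of the genes that changed. The 250 bases before the annotated start (RefSeq, GRCm38.p6, chr6:143947107-143947356, minus strand, 5′ to 3′) lie inside the *Sox5* gene body, at an internal start. Capitals mark the 6 letters ACAATG, a form of the SOX binding word, at position -154 from the start.
Sox5: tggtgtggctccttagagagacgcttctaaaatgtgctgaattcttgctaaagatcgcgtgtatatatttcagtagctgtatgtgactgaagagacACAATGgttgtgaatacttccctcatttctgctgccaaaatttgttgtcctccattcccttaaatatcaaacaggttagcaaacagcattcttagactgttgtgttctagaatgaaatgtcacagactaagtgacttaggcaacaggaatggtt

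*Sox6* (ENSMUSG00000051910, chromosome 7, 115470872 to 116038796, minus strand), the partner of *Sox5*, did not pass the threshold in the main limma fit. Its call changed with the tool, with the litters used and when tdTomato 3b was left out. Its iCreb5 values lay close together, from 664.4 over a median of 716.7 to 811.7. Its tdTomato values ran from 583.1 over 1213 to 1485. The lowest value of all 12 belonged to tdTomato 3b, while the other 5 tdTomato libraries, at 1026 or more, were above every iCreb5 library. Over all libraries its log2 change was -0.61 ± 0.19 (SE; 95% interval -1.02 to -0.20, limma adjusted p = 0.0725). Without tdTomato 3b it was -0.80 (adjusted p = 0.00151). With edgeR the adjusted p was 0.0368 and with DESeq2 0.00822. Its log2 change was -0.19 within litter 3, which holds that library, and -1.03 within litters 4 to 6 (adjusted p = 0.00438).

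*Sox8* (ENSMUSG00000024176, chromosome 17, 25565892 to 25570686, minus strand) showed the largest change of the 9 over all 12 libraries, but not in every subset of them. In iCreb5 its values ran from 116.3 over a median of 213.7 to 259.8, and in tdTomato from 325.6 over 479.8 to 609.8. All iCreb5 libraries lay below all tdTomato libraries, with iCreb5 3a far below the rest of its group. *Sox8* was 2.25-fold higher in tdTomato (adjusted p = 0.00298), a log2 change of -1.17 ± 0.22 (SE; 95% interval -1.63 to -0.71). Litter 3 alone gave -1.59 (adjusted p = 0.0148) and litters 4 to 6 gave -0.74, where it did not pass (adjusted p = 0.104). Within litters 4 to 6 *Sox6* (-1.03), *Sox5* (-1.01) and *Erg* (-0.99) changed more than *Sox8*. Without iCreb5 3a, *Sox8* (-1.009) and *Sox5* (-1.012) were alike. An antisense gene on the other strand, 2810468N07Rik, shares 329 exonic bases with *Sox8*. Its values were 190.0 ± 38.8 in iCreb5 and 273.1 ± 50.6 in tdTomato (SD, n = 6), and it did not pass (log2 change -0.52, adjusted p = 0.0959). The sources used here do not say whether counting used strand, so reads of the 2 genes cannot be told apart where they overlap.

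The window before *Sox8* is printed as the promoter region of the regulator with the largest change over all 12 libraries. These 250 bases (RefSeq, GRCm38.p6, chr17:25570687-25570936, minus strand, 5′ to 3′) are overlapped along their whole length by exons of the antisense gene. No searched word was found, so no letter is in capitals.
Sox8: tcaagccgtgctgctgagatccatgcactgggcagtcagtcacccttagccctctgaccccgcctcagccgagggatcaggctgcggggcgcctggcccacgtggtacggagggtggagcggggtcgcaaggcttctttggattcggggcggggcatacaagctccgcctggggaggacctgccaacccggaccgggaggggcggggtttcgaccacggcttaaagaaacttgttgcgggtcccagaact

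*Sox4* (ENSMUSG00000076431, chromosome 13, 28948919 to 28953713, minus strand) was the regulator that rose. In iCreb5 its values ran from 8637 over a median of 9268 to 10857, and in tdTomato from 3783 over 6394 to 6686. All iCreb5 libraries were above all tdTomato libraries, and tdTomato 3a was the lowest of the 12. *Sox4* was 1.63-fold higher in iCreb5 (log2 change 0.70 ± 0.13 SE, 95% interval 0.42 to 0.99, adjusted p = 0.00319), with 0.93 within litter 3 and 0.48 within litters 4 to 6, both past the threshold. The opposite-strand gene Gm26735 shares 2616 exonic bases with *Sox4*. It measured 315.5 in tdTomato 3a and 240.4 in tdTomato 5b, 2.47 in iCreb5 6 and 0 in the other 9 libraries. Without tdTomato 3a and 5b the log2 change of *Sox4* was 0.59 (adjusted p = 0.00181).

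The window before *Sox4* is printed as that of the 1 regulator that rose, to set beside the other 2. It spans 250 bases (RefSeq, GRCm38.p6, chr13:28953700-28953949, minus strand, 5′ to 3′), the last 14 of which fall in the annotated first exon. No searched word was found in it either.
Sox4: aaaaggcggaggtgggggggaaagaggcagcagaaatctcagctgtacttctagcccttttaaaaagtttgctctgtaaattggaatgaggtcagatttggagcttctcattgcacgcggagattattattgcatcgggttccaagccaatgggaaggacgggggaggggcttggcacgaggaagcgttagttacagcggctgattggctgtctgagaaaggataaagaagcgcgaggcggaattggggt

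Because Creb5 belongs to the CREB and ATF family, whose members bind CRE and AP-1 words, 4 words were searched on both strands in the 14 windows that the table holds for 7 of the regulators (*Sox5*, *Sox6*, *Sox8*, *Sox4*, *Sox11*, *Nkx3-2* and *Erg*). The CRE word TGACGTCA was in none of the 14, and 1.55% of 32851 promoter windows of the same length hold it. The AP-1 word TGANTCA was in none, and 6.75% of all windows hold it. The shorter word TGACG, which is contained in the CRE word, was found once, in a window of *Sox6* at position -139 (17.8% of all windows). ACAATG was found in *Sox5*, in 2 windows of *Sox6* and in 1 of *Erg* (10.7% of all windows). A match describes these letters only.

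*Sox11* (ENSMUSG00000063632, chromosome 12, 27334264 to 27342574, minus strand), the other SoxC gene, did not pass the threshold. In iCreb5 it ran from 5288 over a median of 5331 to 8003, and in tdTomato from 4168 over 5155 to 6036. The groups overlapped, with iCreb5 4a and 5 (8003 and 6811) above every tdTomato library and the other 4 iCreb5 libraries within the tdTomato range. Its log2 change was 0.23 ± 0.13 (SE; 95% interval -0.05 to 0.51, adjusted p = 0.396). It was -0.07 within litter 3 and 0.52 within litters 4 to 6 (adjusted p = 0.0692).

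*Nkx3-2* (ENSMUSG00000049691, chromosome 5, 41761483 to 41764501, minus strand) overlapped between the groups. Its values ran from 98.03 over a median of 133.1 to 177.6 in iCreb5 and from 55.8 over 124.7 to 168.6 in tdTomato. In iCreb5 the 3 libraries of litter 3 (151.6 to 177.6) were above those of litters 4 to 6 (98.03 to 114.6), and tdTomato 3a was the lowest of the 12. Over all libraries *Nkx3-2* had a log2 change of 0.16 ± 0.26 (SE; 95% interval -0.40 to 0.72, adjusted p = 0.813). Its sign differed between the sets, at 0.68 within litter 3 and -0.36 within litters 4 to 6, neither past the threshold, and without tdTomato 3a it was -0.05.

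*Trps1* (ENSMUSG00000038679, chromosome 15, 50654752 to 50890463, minus strand) also overlapped. It ran from 963.1 over a median of 1829 to 2506 in iCreb5 and from 1270 over 2290 to 2489 in tdTomato. Low values occurred in both groups, in tdTomato 3b and 5b and in iCreb5 4a and 5. The change of *Trps1* on the log2 scale was -0.16 ± 0.24 (SE; 95% interval -0.67 to 0.34, adjusted p = 0.785), with 0.12 within litter 3 and -0.44 within litters 4 to 6. Without iCreb5 5 it was 0.00.

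*Erg* (ENSMUSG00000040732, chromosome 16, 95359169 to 95586593, minus strand) lay just outside the threshold. In iCreb5 it ran from 170.2 over a median of 199.7 to 242.7, and in tdTomato from 216.0 over 338.3 to 416.4. All tdTomato libraries of litters 4 to 6, and tdTomato 3c, were clear of every iCreb5 library, tdTomato 3a was above them by little (242.9), and tdTomato 3b overlapped. The change of *Erg* on the log2 scale was -0.62 ± 0.18 (SE; 95% interval -1.01 to -0.23, limma adjusted p = 0.0557). With litter as the replicate block the adjusted p was 0.0476, but with the libraries of litter 3 averaged within each group as well it was 0.0526 and did not pass. With edgeR it was 0.0445 and with DESeq2 0.00817. It was also past the threshold without tdTomato 3b (0.0232), without tdTomato 3a (0.0426) and without iCreb5 5 (0.0462). The log2 change was -0.25 within litter 3 and -0.99 within litters 4 to 6 (adjusted p = 0.0404).

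**Figure D2:**
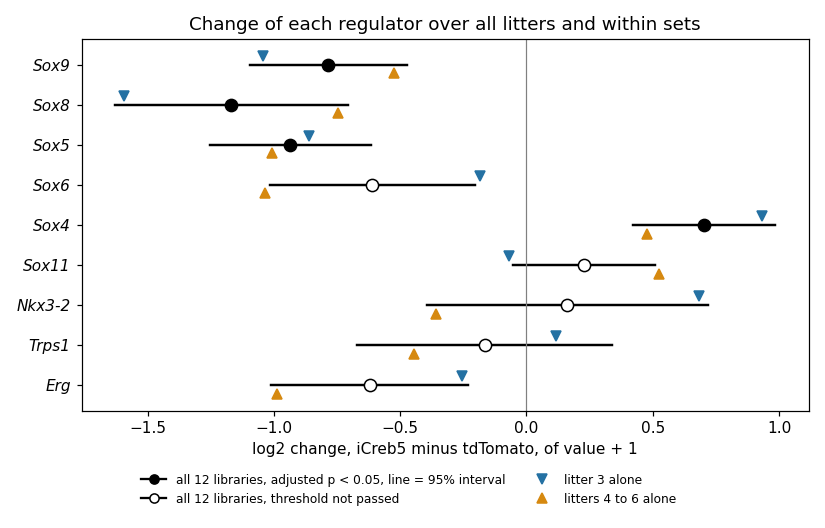
Log2 change of each regulator, iCreb5 minus tdTomato, on the log2(value + 1) scale (horizontal axis). Circles with lines are the change over all 12 libraries with its 95% interval, filled where the adjusted p passed 0.05, and triangles give litter 3 alone (downward) and litters 4 to 6 alone (upward). *Sox9*, *Sox8* and *Sox4* lie further from 0 in litter 3, and *Sox6* and *Erg* further from 0 in litters 4 to 6.

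The change in litter 3 was compared with that in litters 4 to 6 in a fit with litter as a term. For *Sox11* the change in litter 3 minus that in litters 4 to 6 was -0.59 (95% interval -0.99 to -0.19). For *Sox6* it was 0.85 (0.21 to 1.49) and for *Erg* 0.73 (0.07 to 1.398). For *Sox8* it was -0.85 (-1.69 to -0.01) and for *Sox9* -0.52 (-0.99 to -0.05). For *Sox5* it was 0.15 (-0.33 to 0.62), for *Sox4* 0.46 (-0.06 to 0.97), for *Nkx3-2* 1.04 (-0.03 to 2.11) and for *Trps1* 0.56 (-0.18 to 1.30), intervals that span 0. None of the 9 differences passed after adjustment over all genes (limma adjusted p from 0.501 to 0.856). Over all 16733 genes, 0 passed (0.0%), with 1500 at an unadjusted p under 0.05, and the smallest adjusted p was 0.416. No other tool was run for this test. Batch labels follow the litters 1 to 1, so a litter and its batch cannot be told apart.

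Levels were put in order per kilobase of merged exon, which joins the exons of all annotated transcripts of a gene. Merged lengths ran from 1.718 kilobases for *Nkx3-2* to 14.832 for *Sox6*. Which transcripts were expressed was not examined, so the order depends on these lengths. In tdTomato *Sox9* stood first at 2371 ± 547 normalised reads per kilobase (SD, n = 6), followed by *Sox4* at 1232 ± 232 and *Sox11* at 614 ± 90.6. These 3 did not overlap with each other or with the rest. *Sox8* (151 ± 41.1) and *Trps1* (149 ± 41.9) followed, and then *Erg* (92.7 ± 22.9), *Sox6* (78.7 ± 23.3), *Sox5* (77.5 ± 13.4) and *Nkx3-2* (73.4 ± 24.1), whose ranges overlapped. In iCreb5 *Sox4* stood first at 1977 ± 171 and *Sox9* second at 1358 ± 190, again without overlap, and after them *Sox11* at 723 ± 138. *Nkx3-2* moved from place 9 to place 5 (79.5 ± 19.6) and *Sox8* from place 4 to place 6 (67.0 ± 15.9), with overlapping ranges, and *Sox5* was last at 40.7 ± 7.96.

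Ratios within a library ask whether 2 regulators, or *Sox9* and its classical targets, changed unequally. Across 11 pairs, tested by exact two-sided permutation over the 924 arrangements of the library labels and adjusted over the 11, 3 pairs passed the threshold. The smallest p this design allows is 0.00216. The ratio of *Matn1*, a cartilage matrix gene, to *Sox9* had a log2 mean of 0.27 ± 0.32 in iCreb5 and 1.52 ± 0.17 in tdTomato (SD, n = 6). The difference was -1.25 (exact permutation p = 0.00216, adjusted p = 0.0238), and the groups did not overlap. *Acan*, the gene of aggrecan, had a difference of -0.83 relative to *Sox9* (exact permutation adjusted p = 0.0357). For *Col2a1*, the collagen II gene, the difference relative to *Sox9* was -0.38 and did not pass (exact permutation p = 0.132, adjusted p = 0.207).

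Among the regulators themselves the ratio of *Sox9* to *Nkx3-2* was lower in iCreb5 by a log2 difference of -0.95 (exact permutation adjusted p = 0.0476). Most of it lay in litter 3, where the difference was -1.73, while it was -0.17 in litters 4 to 6. The ratio of *Sox9* to *Sox5* differed by 0.15 (exact permutation adjusted p = 0.468), that of *Sox9* to *Sox6* by -0.17 (0.695) and that of *Sox5* to *Sox6* by -0.32 (0.414). For *Sox9* to *Sox8* it was 0.38 (exact permutation adjusted p = 0.187), and for *Sox4* to *Sox11* 0.48 (0.187). For *Sox9* to *Trps1* it was -0.62 (exact permutation adjusted p = 0.187) and for *Sox9* to *Erg* -0.16 (0.688). The sign of 5 of the 8 pairs of regulators differed between litter 3 and litters 4 to 6, untested: *Sox9* to *Sox6* (-0.86 and 0.51), *Sox9* to *Erg* (-0.79 and 0.46), *Sox9* to *Sox5* (-0.18 and 0.48), *Sox5* to *Sox6* (-0.67 and 0.02) and *Sox4* to *Sox11* (1.001 and -0.05). A p that misses the threshold does not show that a pair changed equally. When libraries were permuted only within litters, as the replicate block, the smallest p over 160 arrangements is 0.0125 and no pair passed. The adjusted p was then 0.0688 for *Matn1* and *Nkx3-2*, each against *Sox9*, and 0.0917 for *Acan*. *Matn1* and *Nkx3-2* were both at that smallest p, so this test had little room to pass a pair. The call for *Acan* was lost without tdTomato 3a, 3c or 4a (0.0595 each). The call for *Nkx3-2* held when iCreb5 4a, tdTomato 5b or tdTomato 6d was left out and was lost on leaving out each of the 9 others (adjusted p from 0.0714 to 0.127).

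**Figure D3:**
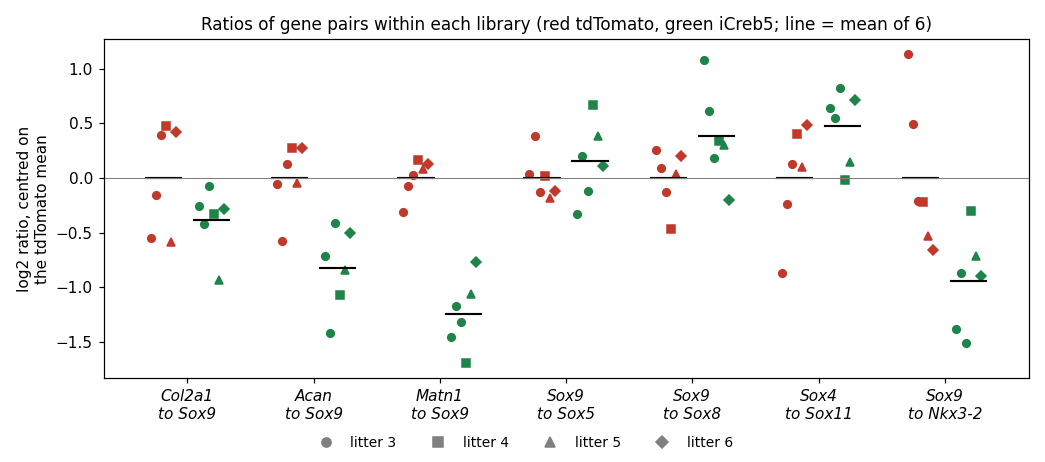
Log2 ratio of 7 gene pairs in each library (vertical axis), centred on the mean of the 6 tdTomato libraries. Each symbol is 1 library, red for tdTomato and green for iCreb5, its shape gives the litter, and lines are means of 6. The *Matn1* to *Sox9* ratio separates the groups, with means 1.25 apart, and the other pairs overlap.

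Cartilage matrix and related genes, which include the best known targets of the *Sox9*, *Sox5* and *Sox6* trio, all fell in the main fit. Of 20 genes listed, 20 were lower in iCreb5, 0 were higher, and the median log2 change was -1.59, beside -0.78 for *Sox9*. Falls made up 2.85% of all genes tested. Within litter 3 alone, 19 of the 20 passed as lower. The groups did not overlap for 17 of the 20, beside 1.92% of all genes tested, and overlapped for the others, *Col2a1* among them. *Ucma*, a cartilage matrix gene, was 6.03-fold higher in tdTomato (20.3 ± 7.82 against 124.9 ± 35.9, SD, n = 6, limma adjusted p = 3.74e-05). *Cytl1* (4.28-fold), *Chad* (4.25-fold) and *Matn1* (4.08-fold) were the next. This fall was known from earlier work on these data and is given for comparison with the regulators.

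Of 17 tested genes that modify or assist *Sox9*, 1 rose, 1 fell and 15 did not pass, with a median log2 change of 0.07. Most of all 16733 genes tested did not pass either, as 6.72% passed. *Wwp2*, which encodes a ubiquitin ligase, was 2.03-fold higher in tdTomato at 9406 ± 2137 against 4586 ± 724 (SD, n = 6, adjusted p = 0.000534), without overlap. *Arid5b*, which encodes a chromatin co-factor, was 1.46-fold higher in iCreb5 at 1686 ± 127 against 1165 ± 170 (adjusted p = 0.00707), also without overlap. Its call was lost within litters 4 to 6 (adjusted p = 0.135). *Ctnnb1*, the beta-catenin gene, was among the most abundant members that did not pass, with a log2 change of -0.18.

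Among 16 genes of chondrocyte maturation, 9 fell, 0 rose and 7 did not pass, with a median log2 change of -1.11. Over all genes tested 2.85% fell and 3.87% rose. Without tdTomato 3a and 5b, 6 fell. The forkhead genes *Foxa2* (4.47-fold, adjusted p = 0.00154) and *Foxa3* (3.40-fold, adjusted p = 6.31e-05) and the homeobox gene *Dlx6* (4.46-fold, adjusted p = 0.0111) were higher in tdTomato, as was *Sp7*, the osteoblast regulator (2.61-fold, adjusted p = 0.00178). *Foxa2* and *Dlx6* were weak, at 7.34 ± 3.08 and 6.40 ± 5.23 in iCreb5. Most of their iCreb5 values lay below the level required for testing. Both genes met that requirement through their tdTomato libraries, the lowest at 22.3 for *Foxa2* and 13.8 for *Dlx6*. Both count among the 9 falls. The call for *Foxa2* was lost within litter 3 and within litters 4 to 6 (adjusted p = 0.0775 and 0.0778). That for *Dlx6* was lost within litters 4 to 6 (0.3603), with litter 3 averaged and litter as the replicate block (0.141) and without tdTomato 3a and 5b (0.0661). *Pth1r*, which encodes the receptor of the Ihh-induced hormone PTHrP, did not pass (log2 change -0.20).

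**Figure D4:**
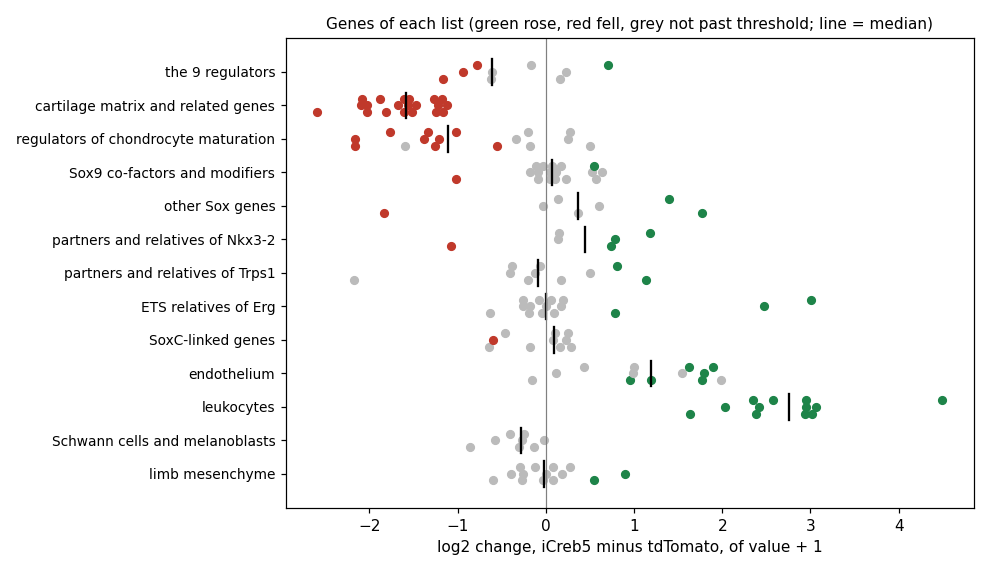
Log2 change, iCreb5 minus tdTomato, on the log2(value + 1) scale (horizontal axis) of every tested gene of 12 lists and of the 9 regulators. Each point is 1 gene, green where it rose, red where it fell and grey where it did not pass, and the black line is the list's median. All 20 cartilage genes lie below 0 and all 12 leukocyte markers above it. The lists around *Nkx3-2*, *Trps1* and *Erg* hold changes of both signs, with rises in each and a fall of *Pax1*.

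Of 6 tested partners and relatives of *Nkx3-2*, 3 rose, 1 fell and 2 did not pass, where 6.72% of all genes tested passed. Their median log2 change was 0.44, with 5 changes above 0 and 1 below. The homeobox gene *Meox2* was 2.26-fold higher in iCreb5 at 8188 ± 898 against 3636 ± 494 (SD, n = 6, limma adjusted p = 8.38e-06), without overlap. *Meox1* was 1.66-fold and the BMP antagonist gene *Grem1* 1.73-fold higher in iCreb5. The call for *Meox1* was lost within litter 3 and within litters 4 to 6 (adjusted p = 0.0606 and 0.0512), and that for *Grem1* within litters 4 to 6 (0.143) and with litter 3 averaged and litter as the replicate block (0.0641). *Pax1*, which acts before *Nkx3-2* in the vertebral column, was 2.11-fold higher in tdTomato (adjusted p = 0.000503), while its relative *Pax9* (log2 change 0.15) and *Bmp4* (0.13) did not pass.

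Of 10 tested partners and relatives of *Trps1*, 2 rose, 0 fell and 8 did not pass. Rises made up 3.87% of all genes tested and falls 2.85%. *Gata3* was 2.19-fold higher in iCreb5 (158 ± 33.8 against 73.1 ± 21.4, SD, n = 6, limma adjusted p = 0.00591), without overlap, and its call was lost within litter 3 (0.139). *Gata2* was 1.75-fold higher (adjusted p = 0.0335), but its call was lost without iCreb5 3a, 3c, 4a or 6 and without tdTomato 3b or 3c (adjusted p 0.0562 to 0.0747). *Gli3*, the hedgehog pathway factor gene that *Trps1* is known to act with, had a log2 change of 0.50 and did not pass (adjusted p = 0.0686). *Stat3* had -0.38 (adjusted p = 0.272).

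Of 15 tested ETS genes related to *Erg*, 3 rose, 0 fell and 12 did not pass, with a median log2 change of 0.00. For all genes tested the shares were 3.87% rises and 2.85% falls. *Etv2*, an ETS gene of blood vessel and blood precursors, rose from 2.73 ± 1.78 to 27.9 ± 9.40 (SD, n = 6, limma adjusted p = 0.000363), and its call was lost within litter 3 (0.0505). All tdTomato values of *Etv2* lay below the level required for testing, the highest at 6.09. It was tested through its iCreb5 libraries, the lowest at 16.0. *Spi1*, a leukocyte factor gene, was 5.56-fold higher in iCreb5 (adjusted p = 9.92e-05), beside the leukocyte markers, of which 12 of 12 rose. *Etv1* was 1.73-fold higher in iCreb5 (adjusted p = 0.0132). *Ets2* (log2 change -0.08) and *Etv5* (-0.26) did not pass.

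Of 10 genes linked to *Sox4* and *Sox11*, 0 rose, 1 fell and 9 did not pass. By comparison, 3.87% of all genes tested rose and 2.85% fell. *Wnt5a*, a Wnt ligand gene of limb outgrowth, was 1.52-fold higher in tdTomato (limma adjusted p = 0.0263). Its call was lost without iCreb5 3b, 4a or 6 and without tdTomato 3a, 3c, 4a or 6d (adjusted p 0.0560 to 0.0675). *Stmn1*, a microtubule regulator gene, had a log2 change of 0.23 and did not pass.

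Of the 13 other Sox genes listed, 7 were expressed strongly enough to be tested. Of these, 2 rose, 1 fell and 4 did not pass, where 6.72% of all genes tested passed. *Sox10*, the gene of neural crest and glial cells, ran from 15.1 over a median of 54.5 to 72.3 in iCreb5 and from 101.3 over 180.7 to 213.8 in tdTomato. The groups did not overlap, and iCreb5 4a was the lowest library. *Sox10* was 3.57-fold higher in tdTomato (limma adjusted p = 0.00242), a log2 change of -1.84 ± 0.33 (SE), with -1.60 within litter 3 and -2.07 within litters 4 to 6. Beside it, 0 of 8 tested Schwann cell and melanoblast markers passed in limma, but all 8 had a log2 change below 0. Their median log2 change was -0.29 over all libraries, -0.15 within litter 3 and -0.80 within litters 4 to 6. The summed level of these markers ran from 364 to 620.4 in iCreb5 and from 491 to 733 in tdTomato. *Cdh19*, a marker of Schwann cell precursors, had a log2 change of -0.14.

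The SoxF genes *Sox7*, *Sox17* and *Sox18* are known from endothelium. *Sox7* was 2.63-fold higher in iCreb5 (119 ± 48.9 against 44.6 ± 19.1, SD, n = 6, limma adjusted p = 0.0226) and *Sox17* 3.42-fold higher (111 ± 78.7 against 29.9 ± 19.0, adjusted p = 0.0220), and both overlapped between groups. *Sox18* had a log2 change of 0.60 (adjusted p = 0.235), and without iCreb5 5 it was 0.79 (adjusted p = 0.0468). The call for *Sox7* was lost without iCreb5 3b, 3c, 4a or 6 (adjusted p 0.0501 to 0.0612). That for *Sox17* was lost without iCreb5 3b or 6 or tdTomato 3a (0.0510 to 0.0606). Without tdTomato 3a and 5b together neither passed (0.102 and 0.114). Beside them, 6 of 13 endothelial markers rose and 0 fell, with a median log2 change of 1.19. Over all genes tested 3.87% rose and 2.85% fell. Of the 13, 6 rose within litter 3, 2 within litters 4 to 6 and 4 without tdTomato 3a and 5b. Over all libraries 1 of the 13 was higher without overlap, beside 2.83% of all genes tested. Summed levels of the 13 ran from 3379.9 to 6479 in iCreb5 and from 2651 to 3464 in tdTomato. *Erg*, which endothelium also expresses, had its log2 change of -0.62 in the same libraries. *Sox12*, the remaining SoxC gene, had a log2 change of 0.36 (adjusted p = 0.114), and *Sox13* (0.14) and *Sox30* (-0.03) did not pass.

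For each regulator the genes most like it were ranked by Pearson's r of the deviations from the group mean over the 12 libraries, so that the difference between groups does not enter. These genes were picked as the highest of all named genes tested, predicted and clone genes left out, and libraries share depth and litter, so the values are a description only. *Sox9* was most like *Fntb* (r = 0.960, Spearman's rho = 0.909), *Ddx1* (r = 0.946) and *Micu2* (r = 0.943). *Sox5* was most like *Lifr* (r = 0.946), *Mab21l2* (0.919) and *Xkr5* (0.911), and *Sox6* most like *Zfp568* (0.913), *Alg13* (0.894) and *Zfp664* (0.891). *Sox8* was most like *Slc16a3* (r = 0.890), *Catspere2* (0.889) and *Scarb1* (0.882). Of these 3, *Slc16a3* and *Scarb1* were also lower in iCreb5, with log2 changes of -0.60 (limma adjusted p = 0.0150) and -0.58 (0.00247). *Catspere2* did not pass (-0.24, limma adjusted p = 0.832). Over all genes tested 2.85% were lower.

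*Sox4* was most like *Pik3ap1* (r = 0.927), *Podxl* (0.923) and *Ccdc50* (0.922). *Pik3ap1* was also higher in iCreb5 (log2 change 2.23, limma adjusted p = 0.0425). *Sox11* was most like *Atg4a-ps* (r = 0.935), *Golt1b* (0.898) and *Atg4a* (0.895), of which *Atg4a-ps* is named as a pseudogene of *Atg4a*, so their reads may be shared. *Nkx3-2* was most like *Dgki* (r = 0.928), *Acsf3* (0.905) and *Lrfn4* (0.905), *Trps1* most like *Sft2d2* (0.980), *Csrnp2* (0.971) and *Caprin1* (0.969), and *Erg* most like *Pcnx* (0.926), *Sertad2* (0.912) and *Rfx3* (0.901). None of the 27 genes was another of the 9 regulators. Apart from *Slc16a3*, *Scarb1* and *Pik3ap1* the 27 did not pass, where 6.72% of all genes tested passed.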

How the data were processed

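Polyadenylated RNA of 12 E14.5 libraries (6 iCreb5, 6 tdTomato) was measured. Per the submitters' processing notes, FastQC, STAR, Salmon, DESeq2 and mm10 were used, with no versions or roles given. The authors' deposited values are a normalised signal, gene counts divided by a size factor per library, judged from the deposited values: 100% were whole multiples of 1 read within 1e-06. Of the deposited table's columns all 12 matched labelled samples, while 8 columns of a P0 table matched none and were not used here. Litters are shared per the labels. Pairs of 1 iCreb5 and 1 tdTomato library of the same litter had a mean correlation of deviations of 0.0627 (range -0.242 to 0.346). Such pairs from different litters had a mean of -0.03, and pairs within a group were not included.

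The main comparison used limma 3.58.1 under R 4.3.3 (trend, two-sided, Benjamini-Hochberg over 16733 genes, threshold 0.05) on log2(value + 1), without a covariate. On the recovered reads, edgeR 4.0.16 and DESeq2 1.42.0 were alternatives. Fits were tested on simulated data. Lengths, positions and overlaps are from GENCODE on mm10, promoters from RefSeq (GRCm38.p6). A value of 3 reads lay between 1.48 and 8.38 units, which covers counting error only. Named genes were the 9 regulators, every other Sox gene tested and, per list, up to 4 passing members with the largest change, the 2 most abundant that did not pass, members of counts of 5 or fewer, and the 3 genes most like each regulator; some that the rule names are not reported here. The members and lists were chosen with earlier results of these data known.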

Additional observations from a re-analysis of the deposited data

Results flagged for a closer look

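In the 6 iCreb5 libraries *Sox8* had an outlying value in iCreb5 3a, at 116.32 normalised reads, while the other 5 ran from 207.9 to 259.8. The gap to the nearest library was 0.638 of the whole range, above the critical value of 0.625 for 6 libraries. Of 32 group ranges checked in this way 1 was outlying, and chance gives about 1 in 20. Without iCreb5 3a the log2 change of *Sox8* was -1.01 (limma adjusted p = 0.00474).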

How the results depend on the processing

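*Sox9*, *Sox8*, *Sox5* and *Sox4* kept their direction under all 26 alternatives tried, and *Sox5* and *Sox4* also kept their side of the threshold. Within litters 4 to 6, *Sox9* (-0.52) and *Sox8* (-0.74) no longer passed. Within litter 3 both passed with larger changes (-1.04 and -1.59). The fit of litters 4 to 6 had litter as the replicate block and that of litter 3 had no block. A call lost in 1 of these fits is therefore no measure of a difference between the sets. *Sox6* passed with edgeR (-0.67), edgeR with the authors' size factors (-0.67), DESeq2 (-0.68), litter 3 averaged and litter as the replicate block (-0.82) and litters 4 to 6 (-1.03). *Erg* passed with edgeR (-0.65, also with the authors' size factors), DESeq2 (-0.65), litter as the replicate block (-0.62) and litters 4 to 6 (-0.99). The 2 edgeR fits and DESeq2 therefore called 5 regulators lower, where limma called 3, and the count ran from 3 to 5 when single libraries were left out. The cause of these differences was not tested.

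Signs turned in litter 3 alone for *Sox11* (-0.0683), *Trps1* (0.12), *Ctnnb1* (0.11), *Pax9* (-0.00212) and *Ets2* (0.0736). They turned in litters 4 to 6 for *Nkx3-2* (-0.36), *Sox13* (-0.0586) and *Sox30* (0.00918). With litter 3 averaged, *Nkx3-2* was -0.10, and with equal library totals *Sox30* was 0.0335. *Nkx3-2* was -0.0858 without tdTomato 3a and 5b. Leaving out iCreb5 5 and 6 gave -0.068 for *Pax9* and 0.0168 for *Ets2*. None of these passed the threshold. Leaving out single libraries gave -0.80 to -0.53 for *Sox6*, -0.73 to -0.54 for *Erg*, -0.0534 to 0.26 for *Nkx3-2*, -0.28 to 0.00123 for *Trps1*, -0.0225 to 0.26 for *Sox13*, -0.11 to 0.0784 for *Sox30* and -0.16 to 0.00384 for *Ets2*.

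Genes called higher numbered 395 in litter 3 and 320 in litters 4 to 6 (648 over all). Genes called lower numbered 292 in litter 3 and 728 with litter as the replicate block (477 over all). With equal totals the median log2 change of all genes moved from 0.00 to 0.07. Within litters 4 to 6, 1 maturation gene was higher. With permutation within litters as the replicate block, the unchanged ratios to *Sox9* of *Matn1* (-1.25) and *Acan* (-0.83), and of *Sox9* to *Nkx3-2* (-0.95), no longer passed. The pairs of *Matn1* and *Nkx3-2* were at the smallest p that permutation allows, so their loss there decides little. In the fit of all 12 libraries the litter block changed no call among the 9 regulators other than that of *Erg*. Calls of *Gata2*, *Wnt5a*, *Sox7* and *Sox17* were lost in 12, 11, 7 and 5 of the 26 alternatives. With single libraries left out, *Acan* to *Sox9* ran from -0.94 to -0.71, *Sox9* to *Nkx3-2* from -1.08 to -0.72, to *Sox8* from 0.24 to 0.50, to *Sox6* from -0.35 to 0.10 and to *Erg* from -0.30 to 0.0329. Depth limits the weakest genes, such as *Foxa2*, *Dlx6* and *Etv2*.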
